A study of Homo sapiens with 2 samples.

Results

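The annexins measured here were 10 genes, ANXA1 to ANXA8, ANXA10 and ANXA11, in a human tongue squamous carcinoma cell line before and after selection for spheroid formation. The set was chosen on measured values, since the difference of ANXA10 between these same arrays put its family forward, so the values of that contrast are a description. All transcript spots whose gene name on the array was one of the 10 were taken, which gave 15 spots of 43376 and 10 names of 30484. Each of the 15 was a different probe with 1 spot per array.

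SAS is an established line from a squamous cell carcinoma of the human tongue, and the SAS sample was the parental population. The eSAS sample was the SAS population after 5 rounds of selection with Spheroid Catch, a tube insert whose mesh retains large spheroids while single cells and small spheroids pass. Total RNA of each population, taken during logarithmic growth, was labelled with Cy3 from an oligo-dT primer and hybridised to 1 array of 60-base probes, with both arrays on 1 slide. There was no replicate array, so no value has a replicate error, no test between the populations was possible, and eSAS is the outcome of a single selection series.

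Annexins are calcium-dependent proteins that bind the negatively charged phospholipids of membranes through a core of repeated domains, while a variable N-terminal tail gives each member its partners. They take part in membrane repair, exocytosis, vesicle traffic, the control of inflammation and the organisation of the cortical cytoskeleton. Several pair with S100 proteins, small calcium-binding proteins that bridge annexin tails. In squamous epithelia ANXA1, ANXA2 and ANXA8 are widely present, whereas ANXA10 is a divergent member, with most of its repeats lacking the usual calcium site, and is known as a transcript of gastric mucosa.

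The regions just before the transcription starts are shown for ANXA10, because its signal differed most, for ANXA1, because it shared the promoter features of ANXA10, and for ANXA5, as a member with the opposite base composition. Each is a window of 300 bases, 250 before and 50 after the RefSeq start, in GRCh38.p14 and written on the strand of the gene. In the first and second, capitals mark TATAAA, and in the third they mark CG dinucleotides. ANXA10 lies at chr4:168092287-168092586 on the plus strand, ANXA1 at chr9:73151615-73151914 on the plus strand, and ANXA5 at chr4:121696931-121697230 on the minus strand.
ANXA10: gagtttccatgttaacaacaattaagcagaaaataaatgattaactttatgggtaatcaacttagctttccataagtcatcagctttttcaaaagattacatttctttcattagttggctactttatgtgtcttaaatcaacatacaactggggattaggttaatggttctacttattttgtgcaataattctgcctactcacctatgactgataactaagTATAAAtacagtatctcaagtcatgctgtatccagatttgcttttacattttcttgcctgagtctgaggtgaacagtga
ANXA1: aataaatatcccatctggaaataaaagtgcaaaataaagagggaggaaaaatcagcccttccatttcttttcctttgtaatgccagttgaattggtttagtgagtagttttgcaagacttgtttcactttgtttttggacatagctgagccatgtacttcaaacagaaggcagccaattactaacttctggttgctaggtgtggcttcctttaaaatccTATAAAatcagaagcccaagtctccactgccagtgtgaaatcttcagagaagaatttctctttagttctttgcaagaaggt
ANXA5: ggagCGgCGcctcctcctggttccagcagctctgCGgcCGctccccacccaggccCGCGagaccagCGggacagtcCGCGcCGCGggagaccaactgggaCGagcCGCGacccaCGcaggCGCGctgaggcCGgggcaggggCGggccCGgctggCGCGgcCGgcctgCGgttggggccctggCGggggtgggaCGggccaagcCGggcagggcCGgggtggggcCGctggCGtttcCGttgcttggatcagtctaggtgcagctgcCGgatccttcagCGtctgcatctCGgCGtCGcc

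The ANXA10 and ANXA1 windows held no CG dinucleotide, and their G and C content was 32.7% and 37.7%. The ANXA5 window held 36 CG dinucleotides at a G and C content of 76.3%. RefSeq windows were matched for 9 of the 10 genes, 13 windows in all, and the 11 windows other than those of ANXA10 and ANXA1 held 7 to 44 CG dinucleotides. ANXA8 had no entry. A window without CG was found for 3.96% of the 35116 windows in the table, whose median was 14 CG dinucleotides. TATAAA, searched on both strands, began 29 bases before the start of ANXA10 and 31 before that of ANXA1 on the gene strand. It was on the gene strand in 4 of the 13 annexin windows, of ANXA1, ANXA2, ANXA10 and ANXA11, and in 7.33% of all windows, and the pair of features, no CG with TATAAA, was found in 0.863% of all windows. These matches describe letters in a window. The genes with both features had unlike ratios, since ANXA1 differed by -0.21 and ANXA10 by -3.64 on the log2 scale given next.

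Levels are given as the processed signal, the linear spot intensity after background correction, and differences as the log2 ratio of eSAS minus SAS, after the signal was divided by the 75th percentile of each array (1242 for SAS and 1196 for eSAS). Signals of different probes are not set against each other, because probes bind with different strength. Taking the 28439 probes with a signal well above background in SAS, eSAS or both, 1.97% were at least 2-fold lower and 1.83% at least 2-fold higher in eSAS. One slide-wide measure of technical spread was available, from 211 probes printed 6 to 10 times on each array. The pooled SD of their log2 ratio between spots was 0.25 below an eSAS signal of 50 (9 probes), 0.11 from 50 to 500 (46 probes), 0.042 from 500 to 5000 (103 probes) and 0.046 above 5000 (53 probes). This SD covers spots within an array and leaves out culture, extraction and labelling.

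ANXA10 was much lower in eSAS. Its processed signal was 283 in SAS and 21.9 in eSAS, with errors of 28.5 and 4.40 by the scanner software's own model. Once each array was scaled, ANXA10 was 12.4-fold lower in eSAS, a log2 ratio of -3.64, and the eSAS signal came to 8.04% of the SAS signal after scaling. Both spots were well above background and neither was marked as non-uniform or as an outlier. The eSAS spot was close to the limit all the same, since the dimmest probe well above background on that array had a signal of 15.2, so the size of the difference is imprecise.

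The raw pixels of the ANXA10 spot had the same direction, and since the processed signal is computed from them they are no separate measurement. The mean pixel intensity was 315 in SAS and 68.2 in eSAS, the medians were 315 and 67.5, and the pixel SDs were 47.8 and 18.2. The local background around the spot was 32 and 27. The spot lies in row 71 and column 9, where the 24 nearest spots had a median log2 ratio of 0.12, and the ANXA10 ratio minus that median was -3.76. Of the 26659 probes that were measurable in both populations, ANXA10 had the fourth lowest ratio, and among the 6269 whose SAS level lay within 2-fold of its own, the SD of the log2 ratio was 0.37 and ANXA10 was the lowest. Since this same difference put ANXA10 forward, a low rank followed from the choice and is only a description.

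The size of the ANXA10 difference depended on how background was removed. With the mean pixels and no background subtraction the log2 ratio was -2.15. With normexp, a convolution model of signal and background, fitted to all spots, the sign turned to 0.96, and under that fit the median of all genes also moved to 0.68 and 11264 probes were at least 2-fold higher. After spots whose local background was marked as non-uniform were left out, the median of all genes was -0.0071 and ANXA10 was at -1.91. The ANXA10 probe lies at chr4:169345139-169345198 in hg18, the build of the array's own annotation, on the plus strand. An hg18 gene model was not used here, so the exon that each probe reads is not given, and with 1 ANXA10 probe other parts of the transcript were not measured.

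**Figure D1:**
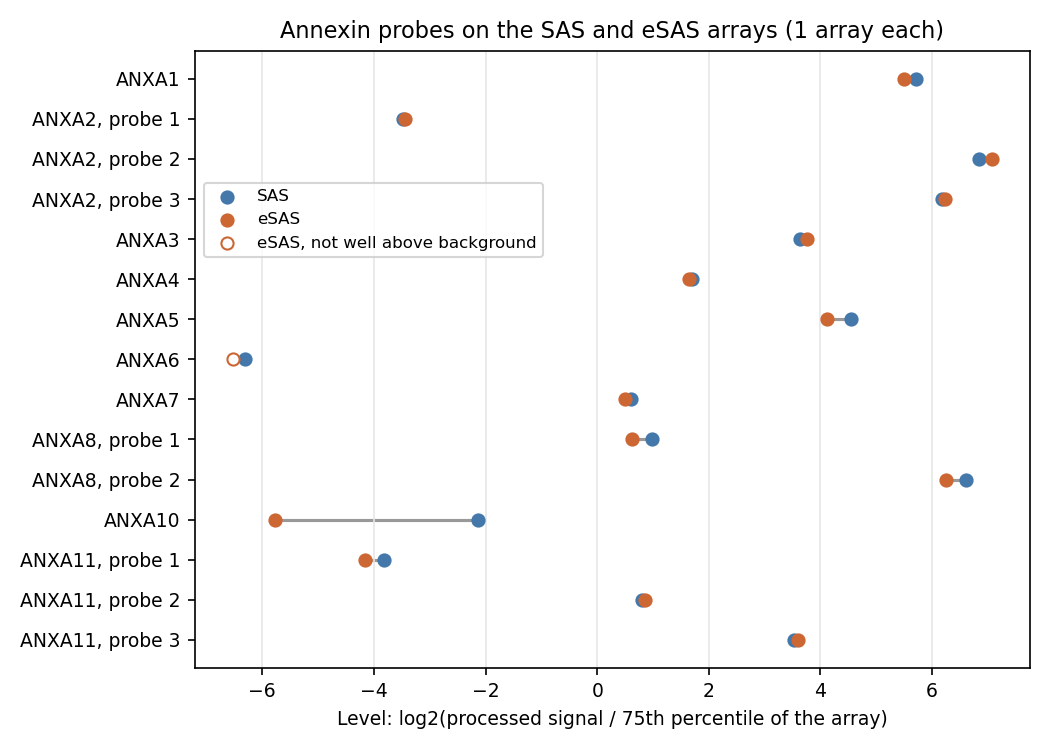
Level of each annexin probe on the SAS array (blue) and the eSAS array (orange), as log2 of the processed signal over the 75th percentile of the array, with a grey line joining the 2 arrays of a probe and an open circle where a spot was not well above background. Compared along its own line, ANXA10 moved from -2.13 to -5.77 and the ANXA5 probe from 4.55 to 4.12, while levels of different probes are not comparable.

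Of the 15 annexin probes, 14 were well above background on both arrays, 1 was at least 2-fold lower (ANXA10) and 0 were at least 2-fold higher. The other 13 measured probes, of 8 genes, had log2 ratios between -0.43 and 0.23, which are folds of 0.742 to 1.17, with 7 below 0 and 6 above. Over the 9 genes with a value, the median log2 ratio was -0.11, against -0.0012 over all 19476 genes measured on both arrays. Since the contrast itself chose the family, nothing is read from these counts against the background shares.

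**Figure D2:**
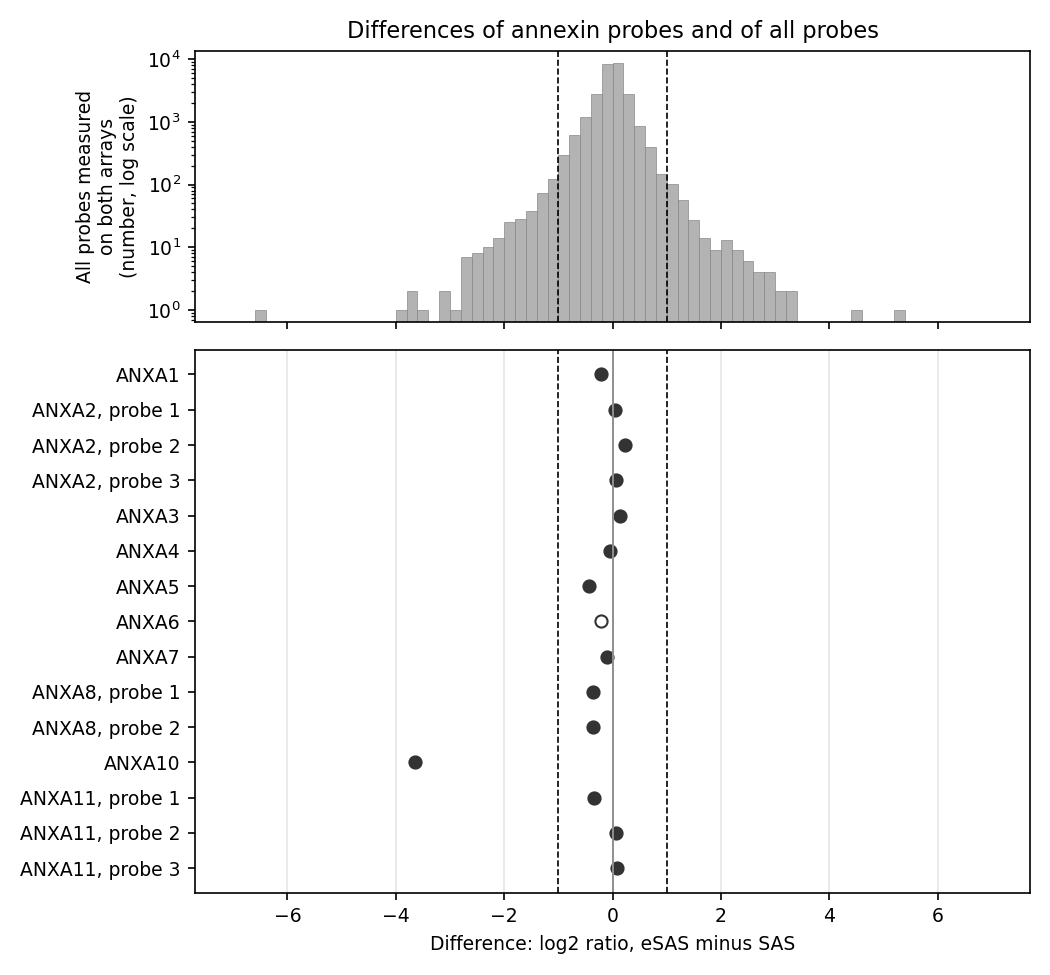
Log2 ratio of eSAS minus SAS for each annexin probe (lower panel, open circle for ANXA6, whose eSAS spot was not well above background) under the distribution of all 26659 probes measured on both arrays (upper panel, counts on a log axis), with dashed lines at 2-fold. ANXA10 lies at -3.64, and the other 13 measured annexin probes lie between -0.43 and 0.23.

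ANXA1, a glucocorticoid-induced protein whose N-terminal peptide is a ligand of formyl peptide receptors, had signals of 64960 in SAS and 54117 in eSAS (chr9:74974822-74974881, plus strand). The log2 ratio was -0.21, which is larger than the spot-to-spot SD at this brightness. Probes of like SAS level varied by an SD of 0.16 between the arrays, and 11.1% of those 918 probes had a ratio as low. The receptors FPR1, FPR2 and FPR3 were not well above background on either array.

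ANXA2, which forms a membrane-bridging complex with S100A10, had 3 probes, and none differed by more than 0.23. The probe at chr15:58427038-58427097 read 142114 in SAS and 160634 in eSAS (log2 ratio 0.23). Among 406 probes of like SAS level, 1.72% had a ratio as high as this one, and their SD was 0.14. The probe that spans an intron, with ends at chr15:58427172-58428616, read 89768 and 90108 (0.060), and the third, at chr15:58426880-58426939, read 111 in both populations (0.052). ANXA2 has retrocopies of nearly the same sequence, which such probes may also bind. S100A10, the partner of ANXA2, had signals of 63565 in SAS and 38333 in eSAS, a log2 ratio of -0.68. The ANXA2 ratios of 0.052 and 0.060 were smaller than the SD among probes of like SAS level. That SD was 0.43 for the dim probe and 0.15 for the intron-spanning one.

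ANXA5, a binder of exposed phosphatidylserine used to stain apoptotic cells, had the lowest ratio after ANXA10. Its signal was 29028 in SAS and 20739 in eSAS (chr4:122808929-122808988, minus strand), a log2 ratio of -0.43. Among 1561 probes of like SAS level, 3.65% had a ratio as low, and their SD was 0.19.

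ANXA8, an annexin of stratified epithelia, was lower by the same amount with both of its probes. The first read 2459 in SAS and 1839 in eSAS (ends at chr10:47226715-47228887) and the second 121134 and 90624 (chr10:47232965-47233024), and both log2 ratios were -0.36. Among 5208 probes of like SAS level, 7.80% had a ratio as low as the first, and their SD was 0.28. For the second this was 3.52% of 512 probes, with an SD of 0.146. The probes of LOC728449, described on the array as an annexin A8 transcript, had smaller differences, at -0.11 and -0.32. ANXA8 has near-identical copies on chromosome 10 that these probes may also bind. Both spots lie in the array rows 450 to 510, which held 183 of the 194 spots marked non-uniform on the SAS array. Neither ANXA8 spot was marked, the median log2 ratio of those rows was 0.019, and the ratios minus the median of the 24 nearest spots were -0.40 and -0.52.

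ANXA3, ANXA4 and ANXA7 differed little. ANXA3, an inhibitor of phospholipase A2 in vitro, read 15348 in SAS and 16190 in eSAS (0.13; ends at chr4:79744519-79750234). ANXA4, an annexin of apical membranes in epithelia, read 4028 and 3759 (-0.045; chr2:69906253-69906312). ANXA7, which has a long tail and promotes membrane fusion, read 1896 and 1692 (-0.11; chr10:74805318-74805377). All 3 ratios were smaller than the SD among probes of like SAS level, which was 0.25 for ANXA3, 0.25 for ANXA4 and 0.28 for ANXA7.

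ANXA11, a long-tailed annexin that binds the calcium sensor PDCD6 and tethers RNA granules to lysosomes, had 3 probes whose ratios were not all of the same sign. The intron-spanning probe read 14293 in SAS and 14553 in eSAS (0.080; ends at chr10:81905609-81907396), and the one at chr10:81904886-81904945 read 2158 and 2166 (0.060). The third, at chr10:81901176-81901235, was dim, at 88.1 and 66.5 (-0.35). The probes thus spanned 0.43 on the log2 scale, and only the dim one was below 0. Each ratio was smaller than the SD among probes of like SAS level, which was 0.25, 0.28 and 0.44 in that order. PDCD6 itself read 61639 and 60930, a log2 ratio of 0.038.

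ANXA6, an annexin with a duplicated core, was measured in SAS only. Its signal was 15.6 in SAS and 13.03 in eSAS, where the spot was not well above background (chr5:150463327-150463386), and no fold is given because the lowest signal well above background in eSAS, 15.2, lay above the SAS signal once both were scaled.

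**Figure D3:**
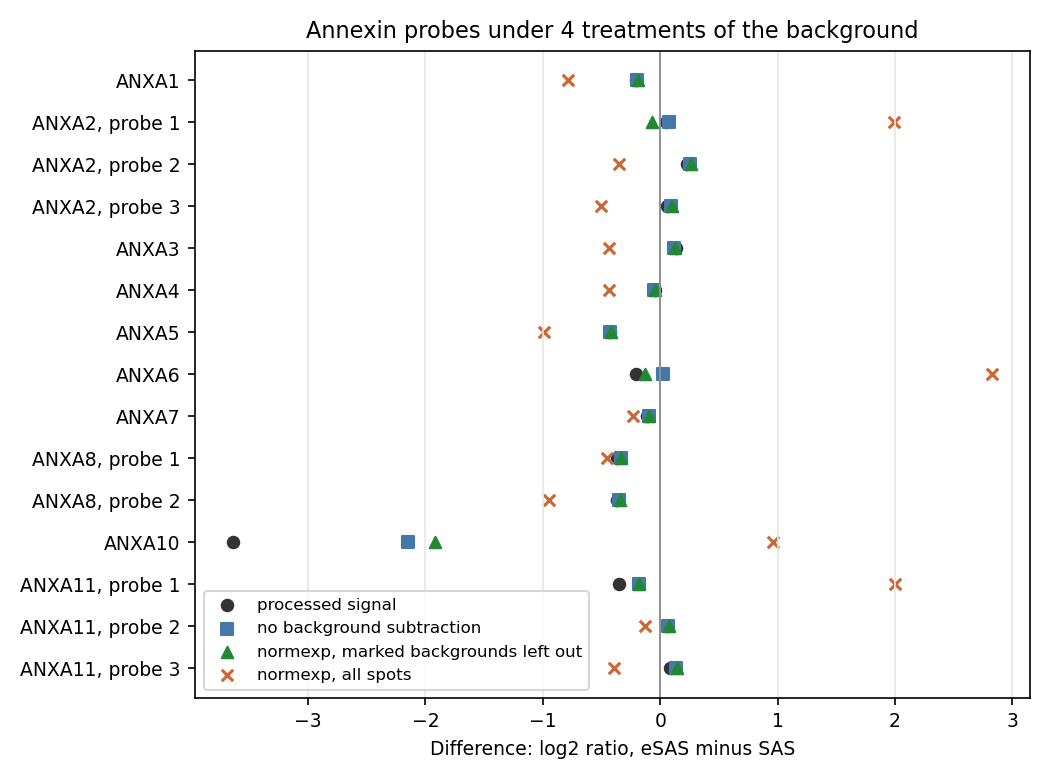
Log2 ratio of eSAS minus SAS for each annexin probe with the processed signal (black circles), mean pixels without background subtraction (blue squares), normexp without marked local backgrounds (green triangles) and normexp on all spots (orange crosses). ANXA10 takes the values -3.64, -2.15, -1.91 and 0.96 in that order, and under the last fit the dim probes of ANXA2, ANXA6 and ANXA11 also lie at 1.99 to 2.83.

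The S100 proteins, many of which bind annexins, were counted as a list of 19 genes. Of these, 14 had a signal well above background in SAS, eSAS or both, and 0 were at least 2-fold lower or higher, where 2.13% of all 20871 such genes were lower and 1.98% higher. The median log2 ratio of the 13 measured on both arrays was -0.050, with 9 below 0 and 4 above. S100A4, a promoter of cell motility, was lowest at -0.86, with signals of 622 in SAS and 331 in eSAS. S100A11, a partner of ANXA1, had a log2 ratio of 0.15 over 2 probes, and S100A6, a partner of ANXA2 and ANXA11, read 78786 and 74151 (-0.033).

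Of 21 annexin receptors, binding partners and phospholipases, 13 were measured on both arrays, their median log2 ratio was 0.0025, and 0 were past 2-fold in either direction. AHNAK, a scaffold of the ANXA2 and S100A10 complex, had a mean log2 ratio of -0.18 over 5 probes that ranged from -0.60 to -0.030. GCA, a calcium-binding relative of PDCD6, was the highest at 0.98, with signals of 193 and 367, and is named after its value was seen. Of 22 genes of membrane repair and exocytosis, 21 were measured, with a median of -0.015, a range of -0.61 to 0.33 and 0 past 2-fold. Over all 20871 genes well above background on at least 1 array, 2.13% were at least 2-fold lower and 1.98% higher. Both counts of 0 lie near those shares.

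ANXA10 is best known from gastric mucosa, so a list of 19 gastric-type epithelial genes was set beside it. On the array were 18, of which 7 were not well above background on either array, among them the secreted stomach products GKN1, GKN2, LIPF and PGC. Other secreted products were measured on both arrays. The mucins MUC5AC and MUC6 had log2 ratios of 0.053 and 0.029, and the trefoil factors TFF1 and TFF2 had 0.056 and 0.62. The 9 measured on both arrays had a median of 0.029, from -0.62 to 0.62. SOX2, a transcription factor of stem cells and foregut epithelium, was not well above background in eSAS and was at least 2-fold lower there, with a bound of -1.22 on the log2 scale. That bound rests on 1 of its 2 probes, with signals of 36.9 and 10.4, and the other was dim on both arrays.

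Markers of the labelled cell type were present in both populations, and 1 of them was past 2-fold. The shares over all 20871 genes well above background on at least 1 array were 2.13% lower and 1.98% higher. Of 10 squamous epithelial markers, 9 were measured and all 9 had ratios below 0, with a median log2 ratio of -0.59 and a range of -3.90 to -0.23, and PERP had only marked spots. Their summed signal, not scaled between arrays, was 41839 in SAS and 23628 in eSAS. The sum is weighted to the brightest probes, and KRT5 made up the largest part of it. KRT14, a keratin of basal cells, was at least 2-fold lower, with a mean of -3.90 over 2 probes that read -6.58 and -1.23. The defining markers KRT5 and TP63 were present in both populations at 22037 and 13677 and at 1503 and 1097. The part of this difference in the annexin values was not tested. In RNA of a whole population, fewer cells with a transcript and less of it per cell cannot be told apart.

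Markers of other cell types were sparse. Of 8 leukocyte markers, 3 were measured, with log2 ratios of 0.12 to 0.83, and PTPRC and CD3E were not well above background on either array. The summed signals of the 3, not scaled between arrays, were 987 and 1080, of which CD68 alone gave 717 and 752. Of 9 fibroblast markers, 1 was measured on both arrays (THY1, -0.0071), COL1A2, COL3A1, PDGFRA and DCN were not well above background on either. LUM, dim in SAS, was at least 2-fold higher in eSAS with a bound of 1.26 and signals of 3.21 and 29.6. COL1A1 went the other way, with 15.1 in SAS and 4.90 in eSAS, where it was not well above background, and has no fold because its SAS signal was itself below the scaled limit of the eSAS array. Of 6 endothelial markers, 2 were measured, at -0.20 and -0.10, and PECAM1 and KDR were dim on both arrays.

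**Figure D4:**
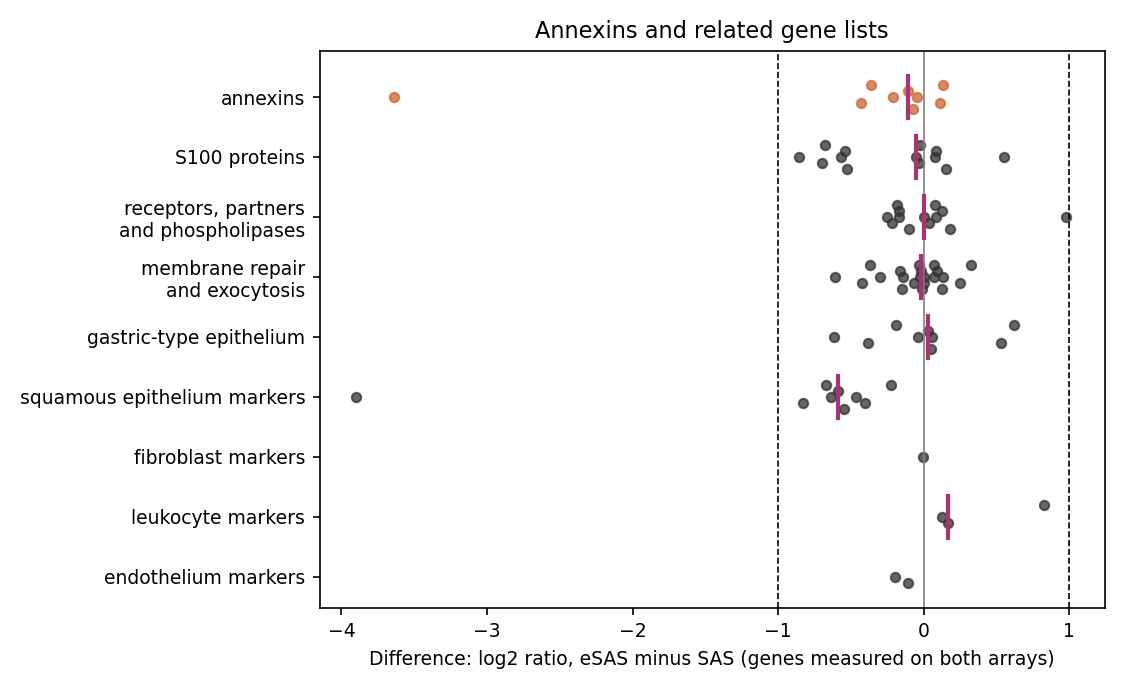
Log2 ratio of eSAS minus SAS for the genes of each list measured on both arrays, 1 point per gene (points are shifted up and down for visibility), with a purple bar at the median where a list has at least 3 genes and dashed lines at 2-fold. The annexin point at -3.64 is ANXA10 and the squamous marker at -3.90 is KRT14.

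No measured gene beside ANXA10 was lower by 2-fold or more. Within 2 Mb on either side, 34 other probes were on the array, of which 23 were measured on both arrays, 1 on 1 array and 10 on neither. Of the 23, 9 had ratios below 0 and 14 above, 0 were at least 2-fold lower and 2 at least 2-fold higher. The shares were 1.97% lower and 1.83% higher over all 28439 probes well above background on at least 1 array. A count of 0 among 23 lies near the first share. Both higher probes were of DDX60, an interferon-induced helicase of antiviral defence. Its first probe lies 29540 bases from that of ANXA10. The DDX60 signals were 192 in SAS and 384 in eSAS with the first probe (log2 ratio 1.05) and 230 and 478 with the second (1.11). Next along the chromosome, the transcript FLJ31033 read 167 and 257 (0.68) with one probe and 46.7 and 58.1 (0.37) with the other.

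The remaining 19 measured probes of that window lay between -0.31 and 0.40. PALLD, which encodes an actin-bundling protein, was at 0.30, CBR4, a mitochondrial reductase, at 0.18, SH3RF1, a scaffold with ubiquitin ligase activity, at 0.060 and -0.037, and CLCN3, a chloride transporter, at -0.12 and -0.061. NEK1, a kinase of the cilium, had probes at 0.39, 0.40 and -0.027, and HPF1, a partner of PARP enzymes, was at 0.0071 and -0.0036. A probe named PTGES3, placed in this window by the array's annotation, was at 0.019. Whether that probe reads a transcript of this region was not tested. LOC731224 was at -0.20. SPOCK3, MFAP3L and AADAT were not well above background on either array, and the only probes before ANXA10 in the window, of SPOCK3 and of 1 unnamed transcript, were among the dim ones, so the upstream side gave no measured value.

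**Figure D5:**
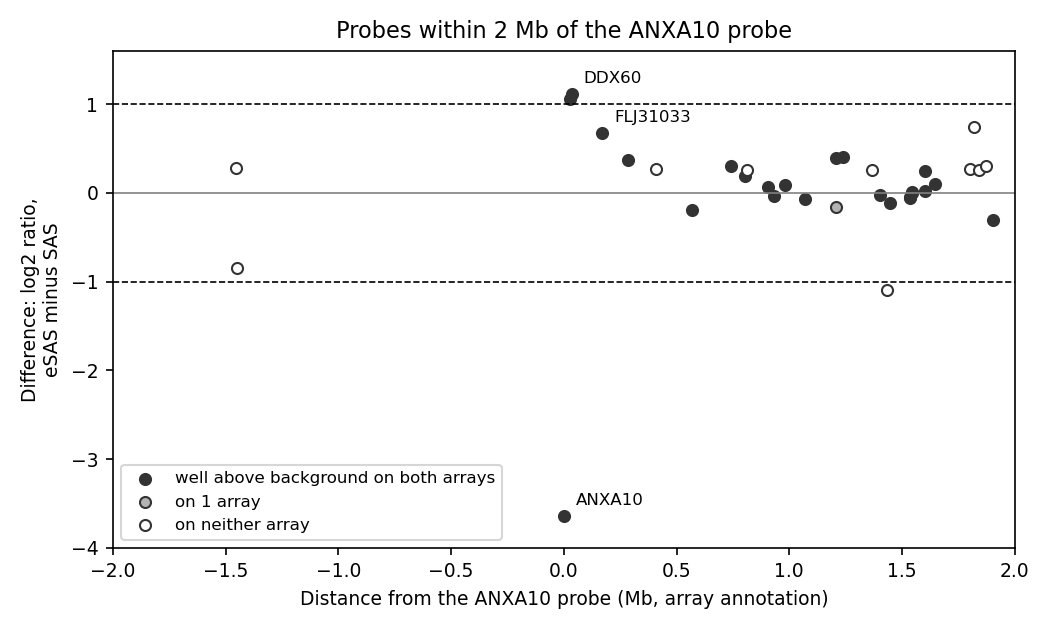
Log2 ratio of eSAS minus SAS of the 35 probes within 2 Mb of the ANXA10 probe against distance in Mb, filled where well above background on both arrays, grey where on 1 and open where on neither, with dashed lines at 2-fold. ANXA10 lies at -3.64 at distance 0, and the 2 DDX60 probes lie at 1.05 and 1.11 just beside it.

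The genes whose ratios were nearest to that of ANXA10 among probes measured on both arrays were ACKR3, a scavenging chemokine receptor, at -3.65 (1358 in SAS and 104 in eSAS), ESPNL, a relative of the actin-bundling protein espin, at -3.43 (426 and 38.0), the transcript ENST00000311208 at -3.87 (754 and 49.6), ACP5, tartrate-resistant acid phosphatase, at -3.16 (384 and 41.4), and HTRA3, a secreted serine protease, at -3.03 (676 and 79.9). Likeness was measured as the size of the difference between log2 ratios over the 2 arrays, which at 1 contrast says nothing of a shared pattern.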

How the data were processed

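SAS and eSAS RNA was hybridised to 1 one-colour Agilent 4x44K array per population. The authors deposited linear intensity values of each spot from Agilent Feature Extraction 10.7.3.1, per the labels. The processed signal is background-corrected and not scaled between arrays, and the deposited series table equals it at all 43376 transcript spots of both arrays.

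Here log2 of the processed signal was taken minus the log2 of the 75th percentile of each array. The 330 spots marked non-uniform or outlying were left out, 40814 probes remained, and replicate spots were averaged. A probe counted as measured when more than 50% of its spots were well above background on both arrays. A dim side was set to the lowest signal well above background on its array, or its own value if higher. Between 67.5% and 69.4% of spots were well above background, 0 were saturated, and median local backgrounds were 28 and 30. Only 1 array per population limits the precision.

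Probe positions are those of the array (hg18). Older gene names were updated through the RefSeq table of GRCh38.p14. All annexin probes were named, of each list the genes with a log2 ratio or bound of at least 1 plus S100A10, S100A11, S100A6, S100A4, AHNAK and PDCD6, the genes within 2 Mb of ANXA10, and the 5 with the nearest ratio. Others named (list markers, list extremes, genes of a list that were dim) were chosen after their values were seen. The members and lists were chosen with earlier results of these data known. A comparison of annexin protein sequences was planned and not run, since no protein table was used here.

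Python 3.11.15 with numpy 2.4.6 and pandas 2.3.3 was used, and limma 3.58.1 in R 4.3.3 for normexp (offset 50). The counting of probes past 2-fold was checked on a simulated eSAS array in which 200 probes were changed 3-fold. That array had less spread than the real ones and took its well-above-background calls from SAS. The check therefore did not cover the lower limit set for a dim side. Alternatives were other scalings, background corrections and filters.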

Additional observations from a re-analysis of the deposited data

How the results depend on the processing

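ANXA10 stayed at least 2-fold lower under every alternative except normexp fitted to all spots. With normexp on mean pixels of all spots the log2 ratio of ANXA10 was 0.96, 0 annexin probes were at least 2-fold lower and 2 higher, the annexin median was -0.43, and the medians of the receptors and partners, membrane repair, gastric-type and leukocyte lists were -0.20, 0.20, 2.21 and 1.31, with 183 of all probes lower and 11264 higher. On median pixels these values were 0.94 for ANXA10, 2 annexin probes higher, an annexin median of -0.42, list medians of -0.20, 0.20, 2.21 and 1.30, and 177 and 11251 probes. That fit moved the median of all genes by 0.68, and relative to it ANXA10 was not lower. After spots with marked local backgrounds were left out, an alternative chosen after seeing the data, ANXA10 was at -1.91 with 156 probes lower and 86 higher. Without background subtraction ANXA10 was at -2.15, with 161 lower and 125 higher.

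Counting only probes well above background on both arrays gave 335 lower and 250 higher, and no filter gave 1536 and 1375, with medians of 0.088 for the receptors and partners and 0.11 for the gastric-type list. Subtracting the median of the 24 nearest spots, also chosen after seeing the data, put ANXA10 at -3.76 and the S100, membrane repair, gastric-type and leukocyte medians at -0.17, -0.095, -0.087 and 0.090. Over all results and settings, 109 values stayed within the limits set for them, 34 moved and 2 reversed. The 109 include values that could not move. Among these are all values from the authors' series table, which equals the processed signal. ANXA10 and the medians under the filter on both arrays, which already rest on such probes, are further cases. Apart from the marked backgrounds and the numbers of probes counted, the cause of the movements was not tested. Quantile and median scaling, no scaling and keeping marked spots moved no result, and the brightest probe per gene, run for the annexin median alone, did not move it. Leaving out the scaling shifted every log2 ratio by the same -0.054, and median scaling shifted all by another constant. Both shifts were below the limit for a moved ratio, the pooled SD of 0.080 over all repeated probes. No ratio could therefore move under these 2 settings. No annexin spot was marked, so keeping marked spots could not change the annexin values. No paired analysis was possible because SAS and eSAS have 1 array each, so no replicate could be left out either, and both arrays share 1 slide. Lists with fewer than 3 measured genes were given no median. Signals near the lower limits, 12.8 in SAS and 15.2 in eSAS, give the size of a difference loosely, and this holds for the eSAS signal of ANXA10.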

Other observations

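Annexin genes outside the 10 were also on the array. ANXA9, another divergent annexin, read 755 in SAS and 634 in eSAS, a log2 ratio of -0.20. ANXA13, an annexin of intestinal epithelium, had a probe that read 37.7 and 21.1 (-0.78), and a second that read 18.2 in SAS and was not well above background in eSAS. The ANXA2 retrocopies ANXA2P1 and ANXA2P3 read 14297 and 14862 (0.11) and 402 and 437 (0.18), which lay within the range of the ANXA2 probes. ANXA2R, listed on the array under its older name C5orf39, read 247 and 226 (-0.072).

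Transcripts in or beside annexin genes had probes under other names. LOC728449, described on the array as an annexin A8 transcript, had log2 ratios of -0.11 (3389 in SAS and 3022 in eSAS) and -0.32 (14751 and 11387), both below 0 like the ANXA8 probes. THC2556753, near ANXA2, was at 0.027, AI922845, placed beside the ANXA7 probe, at 0.13, and THC2565151, near ANXA1, at 0.13. THC2596442 was at 0.031.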
